A study of Xenopus tropicalis with 21 samples.

Results

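The complement and coagulation genes measured here encode the plasma proteins of innate defence and of blood clotting, most of them made by liver cells. They were chosen by symbol, from a list of 56 genes of which 26 belong to complement and 30 to clotting. A total of 51 symbols were found in the liver tables, in 53 rows of 20288, since *c6* and *proc* each have a second copy (*c6.1* and *c6.2*, *proc* and *proc.2*). The symbols *c1qb*, *f11*, *plau*, *serping1* and *tfpi* matched no row and were not analysed here. Gene symbols are in lower case throughout, so that *f2* is the prothrombin gene and F2 is a generation of frogs.

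Complement is a chain of serine proteases and binding proteins in plasma. The classical pathway starts when C1q binds antibody or a surface and activates C1r and C1s, and the lectin pathway when a lectin activates the MASP proteases. Both cleave C4 and C2, while factors B and D and properdin run the alternative pathway, and all converge on C3, C5 and the pore made of C6 to C9. Clotting likewise runs from tissue factor with factor VII, or from the contact proteases, through factors IX, VIII, X and V to thrombin, which turns fibrinogen into fibrin. Plasmin dissolves the clot, and antithrombin, protein C and their relatives hold the cascade in check.

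RNA was taken from livers of mature female *Xenopus tropicalis*, the tropical clawed frog, and sequenced as 75 bp reads from poly(A) libraries. The groups were 5 F2 BaP frogs, 5 F2 control frogs, 6 F1 BaP frogs and 5 F1 control frogs, 21 in all. In the BaP lineage the F0 ancestors lived from tadpole to mature adult in benzo[a]pyrene, a polycyclic aromatic hydrocarbon, at 50 ng/L. The F1 and F2 frogs sequenced were not themselves exposed, so "BaP" names a lineage. The labels do not say how many F0 parents or clutches each group descends from. The age of the frogs is not given beyond "mature". The comparison in each generation asks whether liver transcripts differ in descendants of exposed frogs.

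The deposited tables hold 1 FPKM (fragment counts divided by transcript length and by sequencing yield) for each group and gene, with no value for any single frog. No SD between frogs can therefore be given, and how deeply each liver was sequenced is not known from them. The F2 and F1 tables were normalized separately, so levels were tested within a generation alone. All levels ("listed at"), fold changes, p and q of genes are the values of the authors' deposited tables. Log2 fold changes compare the BaP lineage with its controls (positive where BaP is higher). The p is Cuffdiff's, q is its adjusted value, and a gene was called at q under 0.05. The 95% intervals come from the deposited log2 fold change and p together. Of 12236 rows tested in F2 the authors called 162 (1.32%), and of 12426 tested in F1 they called 207 (1.67%). Of the hepatocyte markers all 16 listed symbols were found, which does not depend on their level. Their FPKM reached 100 for 11 of 15 usable rows in each F2 group and for 12 of 16 in each F1 group. Retinol-binding protein 4, *rbp4*, was listed by the authors at 6059 FPKM in F2 BaP frogs and 5676 in F2 controls. In F1 it was listed at 6395 FPKM in BaP frogs and 4374 in controls. The albumin gene *alb* had no usable value in either table, nor had *tf* (transferrin) in F2. Of the hepatocyte marker rows, *asgr1* and *cyp2c8.1* were under 1 FPKM in all 4 groups.

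Most members were abundant in liver, and their group levels spanned 0.409 to 2383 FPKM. In F2 the authors' FPKM reached 100 for 28 of 52 usable rows in BaP frogs and for 30 of 52 in controls. In F1 it did so for 32 of 51 rows in BaP frogs and for 30 of 51 in controls. Highest by the mean of the 4 groups was the gamma chain of fibrinogen, *fgg*, with 1622 FPKM in F2 BaP frogs and 2383 in F2 controls, and with 2338 FPKM in F1 BaP frogs and 1873 in F1 controls. Vitronectin, *vtn*, a plasma adhesion protein that also blocks the complement pore, followed with 1508 FPKM in F2 BaP frogs and 1622 in F2 controls, and with 2348 FPKM in F1 BaP frogs and 2098 in F1 controls, where it was above *fgg* in both groups. Next in order of mean FPKM over the 4 groups came *hrg*, *fgb*, *fga*, *f2*, *serpinc1*, *kng1*, *c9* and *plg*. At the bottom were *f13b*, the carrier subunit of factor XIII, the endothelial clotting protein gene *vwf*, and *c4bpa*, a regulator that binds C4b, each under 1 FPKM in all 4 groups. The central complement gene *c3* was marked as having too much data in both tables, and the proteinase inhibitor gene *pzp* in F1, so neither has a usable value there. Too little data left *vwf* untested in F2 and *c4bpa* untested in F1.

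**Figure D1:**
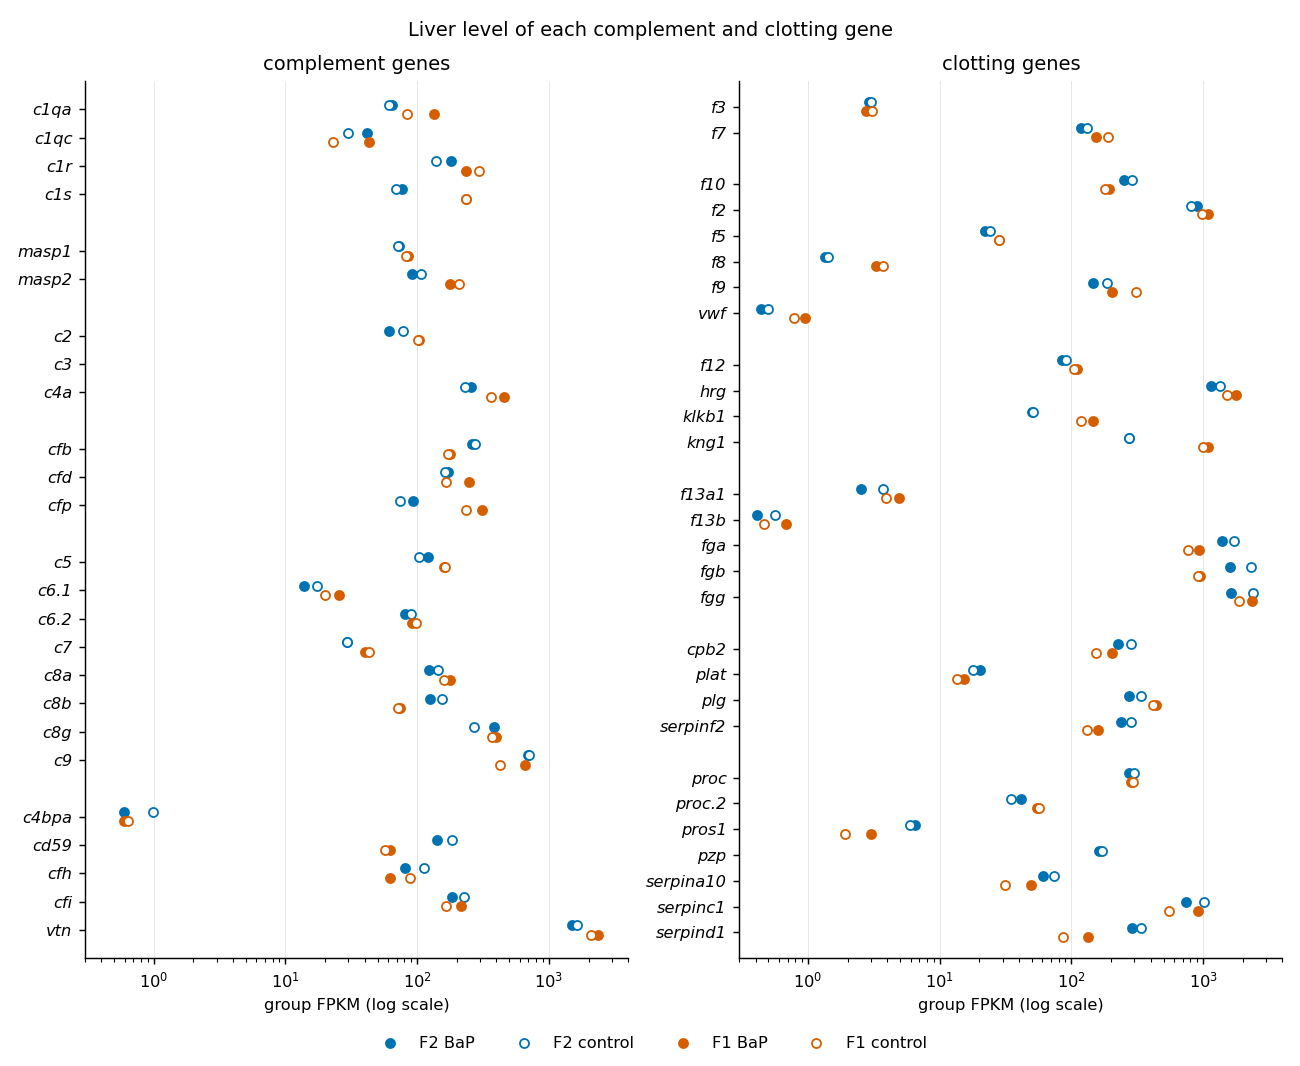
Group FPKM (log scale) of the 53 complement and clotting rows, arranged by role. Filled circles are BaP lineages and open circles controls, F2 above F1 for each gene, with no error bars because each group has 1 value. The fibrinogen genes, *vtn*, *hrg* and *f2* lie near or above 1000 FPKM, and *f13b*, *vwf* and *c4bpa* under 1 FPKM in all 4 groups.

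No complement or clotting gene passed the authors' test in either generation. In F2, Cuffdiff called 0 of 51 tested rows at q under 0.05, against 1.32% of all rows. In F1 it called 0 of 50, against 1.67% of all rows. Unadjusted p was under 0.05 for 1 member in F2, the transglutaminase gene *f13a1*, where 8.9% of all tested rows reached that level. That gene was lower in BaP frogs, as were 4.49% of all rows at that level, and no member was among the 4.41% that were higher. In F1 it was under 0.05 for 3 members, *c1qa*, *c1qc* and *pros1*, against 8.91% of all tested rows. All 3 were higher in BaP frogs, as were 4.35% of all rows, and no member was among the 4.55% that were lower. In both tables the members therefore reached an unadjusted p under 0.05 in a share below that of all rows, 1.96% in F2 and 6% in F1. The smallest q of a member was 0.405 in F2 and 0.158 in F1.

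What these tests could show depends on how the standard error is taken from the tables. The 95% intervals of members reached a median of 0.60 to either side on the log2 scale in F2 and of 0.74 in F1. Intervals lay wholly within a 2-fold change in either direction for 41 of 51 members in F2 and for 23 of 50 in F1. The deposited p and the deposited test statistic do not match under a normal distribution. With the standard error taken from the statistic instead, the median reach was 1.43 in F2 and 1.73 in F1, 0 members in either generation had an interval within a 2-fold change, and every member's interval included 0. All intervals printed here are those from p, and this alternative was chosen after the values were seen. Among all rows reaching 100 FPKM, the smallest change the authors called was 1.20 on the log2 scale in F2 and 1.17 in F1. Over all tested rows with a finite value it was 0.84 in F2 and 1.02 in F1. No member's log2 fold change was as large: the members spanned -0.75 to 0.49 in F2 and -0.59 to 0.91 in F1. The values -0.75 (*c4bpa*) and 0.91 (*c1qc*) belong to rows under 100 FPKM.

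**Figure D2:**
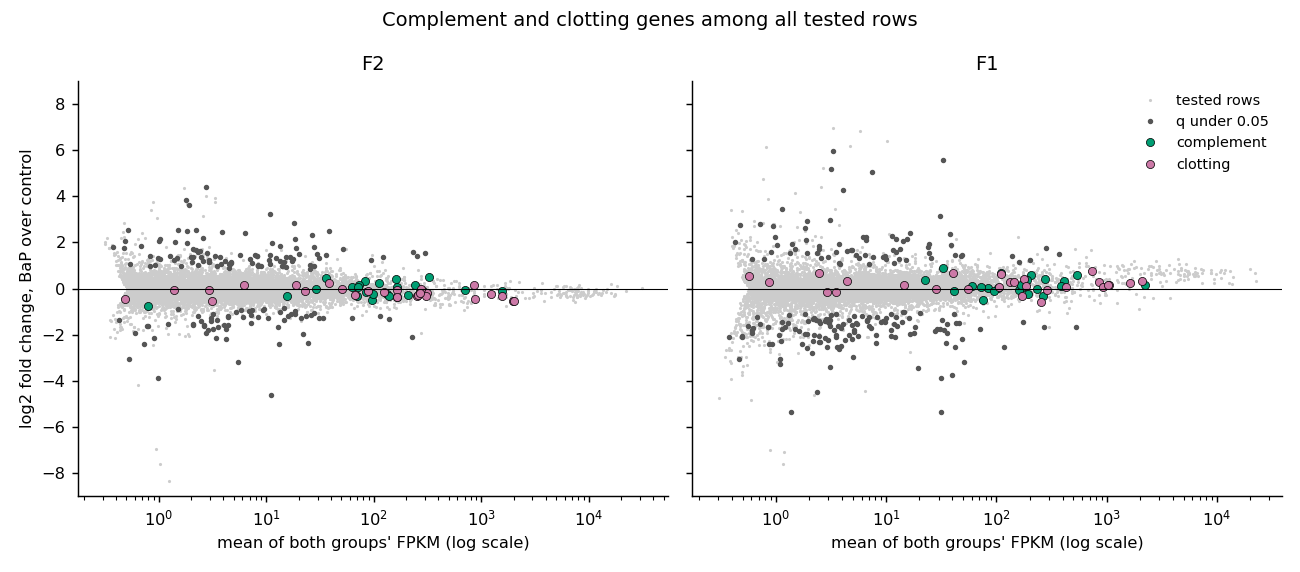
Log2 fold change of BaP over control against the mean FPKM of both groups (log scale), F2 left and F1 right. Grey points are all rows tested by the authors with a finite fold change, dark points those with q under 0.05, green points complement genes and pink points clotting genes. The members stay between -0.75 and 0.49 in F2 and between -0.59 and 0.91 in F1, and none is a dark point.

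More members lay below 0 in F2 and more above 0 in F1, the same directions as most rows reaching 100 FPKM. The member shares cover all tested members, of which 30 in F2 and 32 in F1 reached 100 FPKM. In F2 the log2 fold change was below 0 for 37 of 51 members (72.5%), against 54.2% of all tested rows and 73.1% of rows reaching 100 FPKM. In F1 it was above 0 for 37 of 50 members (74%), against 53.2% of all tested rows and 72% of rows reaching 100 FPKM. Conversely, 14 of 51 members were above 0 in F2 (45.8% of all rows) and 13 of 50 below 0 in F1 (46.8% of all rows). The members' median was -0.12 in F2 and 0.15 in F1, beside -0.03 in F2 and 0.02 in F1 over all tested rows with a finite value. Over the rows reaching 100 FPKM the median was -0.19 in F2 and 0.28 in F1, and for the members among them it was -0.22 in F2 and 0.16 in F1. By arm of the list, the F2 median was -0.06 for 24 complement rows and -0.20 for 27 clotting rows. In F1 it was 0.09 for 23 complement rows and 0.17 for 27 clotting rows. These are descriptions with no test, and no frog-level spread stands behind them.

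**Figure D3:**
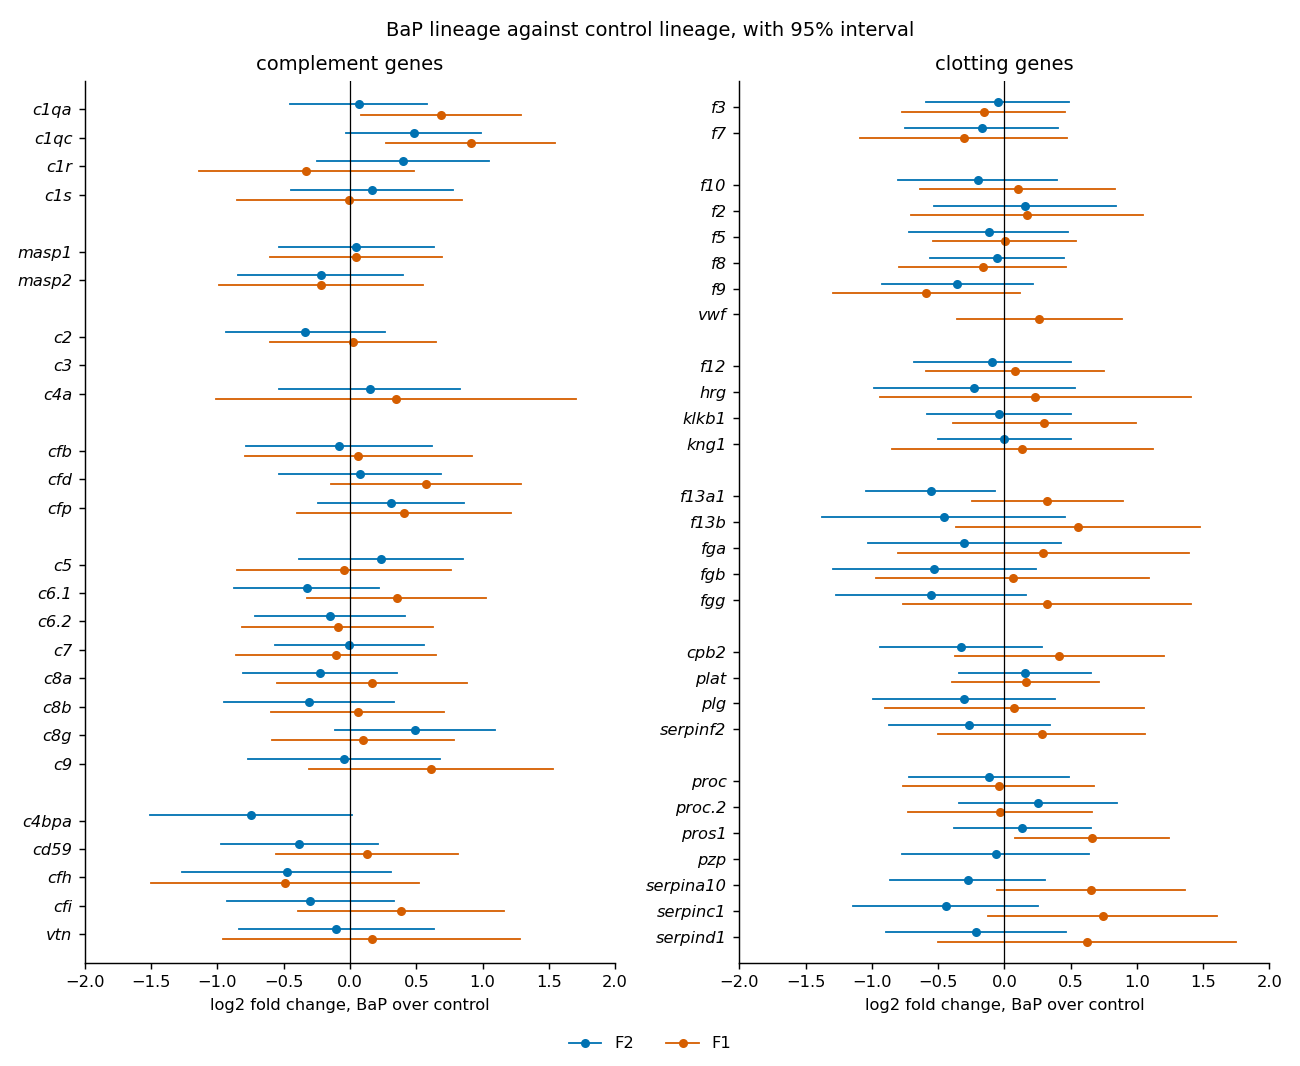
Log2 fold change of BaP over control for each member, with the 95% interval taken from the deposited p, F2 (blue) above F1 (orange). Genes without a point were not tested in that generation. The F1 intervals of *c1qa*, *c1qc* and *pros1* and the F2 interval of *f13a1* leave out 0, and all others include it.

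The smallest p-value of a member in F1 belonged to *c1qc*, a gene that opens the classical pathway. The C chain of C1q, *c1qc*, was listed at 41.5 FPKM in F2 BaP frogs and 29.8 in F2 controls, and at 43.1 FPKM in F1 BaP frogs and 22.9 in F1 controls. Its log2 fold change in the authors' deposited F2 table was 0.48 (95% interval -0.03 to 0.99), with p = 0.0635, q = 0.606, and in the authors' deposited F1 table it was 0.91 (95% interval 0.27 to 1.54), with p = 0.005, q = 0.158. The A chain, *c1qa*, was listed at 64.0 FPKM in F2 BaP frogs and 61.2 in F2 controls, and at 135 FPKM in F1 BaP frogs and 83.9 in F1 controls. Here the authors' deposited tables gave log2 fold changes of 0.06 (95% interval -0.45 to 0.58) in F2, with p = 0.808, q = 0.997, and of 0.69 (95% interval 0.08 to 1.29) in F1, with p = 0.0262, q = 0.407. Both chains were thus higher in BaP frogs in all the comparisons made, by amounts that did not pass q under 0.05. These adjacent rows lie on an unplaced scaffold, separated by 12114 bp.

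The proteases of C1 were likewise above 0 in F2 but at or below 0 in F1. The C1r gene, *c1r*, was listed at 182 FPKM in F2 BaP frogs and 138 in F2 controls, and at 233 FPKM in F1 BaP frogs and 293 in F1 controls, a log2 fold change of 0.40 in F2 and -0.33 in F1 in the authors' deposited tables. Its substrate *c1s* was listed at 77.0 FPKM in F2 BaP frogs and 68.8 in F2 controls, and at 235 FPKM in F1 BaP frogs and 236 in F1 controls, with 0.16 in F2 and -0.0043 in F1 there. Unlike these proteases, C1q is known in mammals as a product of macrophages. The macrophage markers looked at beside it had 9 of 13 log2 fold changes above 0 in F2, against 45.8% of all rows, and 12 of 13 in F1, against 53.2%. Their medians were 0.13 in F2 and 0.23 in F1. In F1 this was not particular to macrophage markers. Above 0 there were 12 of 14 hepatocyte markers (median 0.29), 9 of 9 thrombocyte markers (median 0.24) and 6 of 10 endothelial markers (median 0.14). The summed FPKM of the macrophage markers was 249.6 in F2 BaP frogs and 239 in F2 controls, and 378 in F1 BaP frogs and 290.2 in F1 controls. No macrophage marker was called by Cuffdiff, and unadjusted p was under 0.05 for 0 in F2 and for *lyz* and *fcer1g* in F1, 15.4% of the tested markers against 8.91% of all rows. None of the matched markers was at 0 in any group, while *cd163*, *marco* and *mpeg1* matched no row. Their part in the C1q values was not tested, and in whole liver more cells of a type and more RNA per cell cannot be told apart.

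Of the lectin-pathway proteases, *masp1* had values near 0 in both generations and *masp2* was below its controls in both, with no call. For *masp1*, the authors' deposited tables gave log2 fold changes of 0.05 (95% interval -0.54 to 0.63) in F2 and 0.04 (95% interval -0.61 to 0.69) in F1. For *masp2*, which cleaves C4 and C2, they gave -0.22 (95% interval -0.84 to 0.40) in F2 and -0.22 (95% interval -0.99 to 0.55) in F1. The *masp2* row was listed at 91.5 FPKM in F2 BaP frogs and 107 in F2 controls, and at 179 FPKM in F1 BaP frogs and 209 in F1 controls. The C4 gene *c4a* was listed at 256 FPKM in F2 BaP frogs and 231 in F2 controls, and at 459 FPKM in F1 BaP frogs and 361 in F1 controls. Its log2 fold changes were 0.15 in F2 and 0.35 in F1, and its F1 interval, -1.01 to 1.71, was the widest of the complement genes. For *c2*, the protease that joins C4 in the C3 convertase, the authors listed 61.4 FPKM in F2 BaP frogs and 77.6 in F2 controls, and 104 FPKM in F1 BaP frogs and 102 in F1 controls, which is -0.34 in F2 and 0.02 in F1 on the log2 scale.

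Of the alternative pathway genes, the values of factor D and properdin were above the controls' in both generations. Properdin, *cfp*, which stabilises the convertase, was listed at 92.4 FPKM in F2 BaP frogs and 74.6 in F2 controls, and at 313 FPKM in F1 BaP frogs and 236 in F1 controls. In the authors' deposited tables its log2 fold changes were 0.31 in F2 and 0.40 in F1, with q = 0.909 in F2 and q = 1 in F1. Factor D, *cfd*, the protease that cleaves factor B, was listed at 170.4 FPKM in F2 BaP frogs and 162 in F2 controls, and at 247 FPKM in F1 BaP frogs and 166 in F1 controls. Its log2 fold changes were 0.07 (95% interval -0.54 to 0.68) in F2 and 0.58 (95% interval -0.14 to 1.29) in F1. Factor B itself, *cfb*, had log2 fold changes of -0.09 in F2 and 0.06 in F1 in the authors' deposited tables, with 261 FPKM in F2 BaP frogs and 277 in F2 controls, and 178 FPKM in F1 BaP frogs and 171 in F1 controls.

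Genes of the membrane attack complex, the pore that C5b starts and C9 completes, lay on both sides of 0. Of 8 rows, 2 were above 0 in F2 and 5 in F1, with medians of -0.10 in F2 and 0.08 in F1, and none was called. The pore-forming *c9*, the most abundant of them, was listed at 691 FPKM in F2 BaP frogs and 712 in F2 controls, and at 654 FPKM in F1 BaP frogs and 429 in F1 controls. For it the authors' deposited tables gave log2 fold changes of -0.04 (95% interval -0.77 to 0.68) in F2 and 0.61 (95% interval -0.31 to 1.53) in F1. The highest F2 value belonged to *c8g*, the lipocalin chain of C8, at 0.49 (95% interval -0.11 to 1.09) in the authors' deposited F2 table, with 381 FPKM in F2 BaP frogs and 271 in F2 controls. The genes of the other C8 chains, which lie 2771 bp apart on chromosome 4, had F2 values of -0.22 for *c8a* and -0.31 for *c8b* there. For C5, *c5*, the precursor of the anaphylatoxin C5a, log2 fold changes were 0.23 in F2 and -0.04 in F1 in the authors' deposited tables.

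The copies *c6.1* and *c6.2* stand next to each other and to *c7* on chromosome 1, and reads of similar copies may be divided between them in a way the tables do not show. The first, *c6.1*, was listed at 13.8 FPKM in F2 BaP frogs and 17.3 in F2 controls, and at 25.3 FPKM in F1 BaP frogs and 19.8 in F1 controls, log2 fold changes of -0.33 in F2 and 0.35 in F1 in the authors' deposited tables. For *c6.2* the values were 80.6 FPKM in F2 BaP frogs and 89.3 in F2 controls, and 92.1 FPKM in F1 BaP frogs and 98.1 in F1 controls. The gene *c7* stood at 29.1 FPKM in F2 BaP frogs and 29.2 in F2 controls, and at 40.1 FPKM in F1 BaP frogs and 43.1 in F1 controls.

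All 5 measured regulators of complement were below 0 in F2, with a median log2 fold change of -0.38, while 3 of 4 tested in F1 were above 0. Below 0 in F2 were 54.2% of all tested rows and 73.1% of rows reaching 100 FPKM. Above 0 in F1 were 53.2% of all tested rows and 72% of rows reaching 100 FPKM. None was called by Cuffdiff and none had an unadjusted p under 0.05. The lowest F2 value among all members was that of *c4bpa*, at -0.75 (95% interval -1.51 to 0.02) in the authors' deposited F2 table (p = 0.0553, q = 0.58), with 0.589 FPKM in F2 BaP frogs and 0.989 in F2 controls. Factor H, *cfh*, which protects host surfaces from the alternative pathway, was listed at 80.3 FPKM in F2 BaP frogs and 112 in F2 controls, and at 62.4 FPKM in F1 BaP frogs and 87.7 in F1 controls. Of the 4 regulators tested in both generations it was the 1 below its controls in both, with -0.48 (95% interval -1.27 to 0.31) in F2 and -0.49 (95% interval -1.50 to 0.52) in F1. The membrane inhibitor *cd59* was listed at 142 FPKM in F2 BaP frogs and 185 in F2 controls, and at 62.3 FPKM in F1 BaP frogs and 57.0 in F1 controls, with log2 fold changes of -0.38 in F2 and 0.13 in F1. Factor I, *cfi*, which cleaves C3b and C4b, had log2 fold changes of -0.30 in F2 and 0.39 in F1 in the authors' deposited tables, and *vtn* had -0.10 in F2 and 0.16 in F1.

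**Figure D4:**
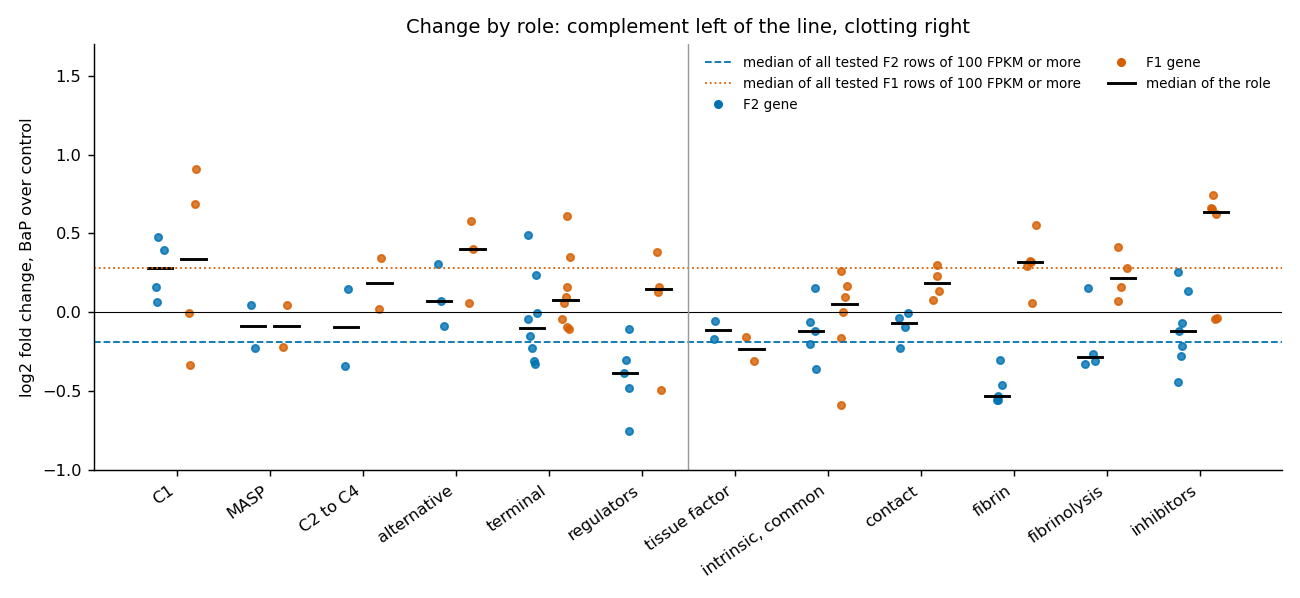
Log2 fold change of BaP over control of each tested member by role, F2 (blue) left of F1 (orange), with black bars at the median of each role. The dashed blue and dotted orange lines mark the medians of all tested rows reaching 100 FPKM, -0.19 in F2 and 0.28 in F1. The fibrin group shows the widest separation of the generations among the roles, with medians of -0.53 in F2 and 0.32 in F1.

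Among clotting genes, those that make and cross-link fibrin had the lowest median in F2. All 5 were below 0 in F2 and above 0 in F1, with medians of -0.53 in F2 and 0.32 in F1, and none was called. The same signs were found for 31.3% of all rows and for 63% of rows reaching 100 FPKM in both tables. The 3 fibrinogen chain genes lie within a stretch of chromosome 1 (54496134 to 54547392). Each fibrinogen molecule holds the alpha, beta and gamma chains in equal number. The gamma chain, *fgg*, had log2 fold changes of -0.55 (95% interval -1.27 to 0.16) in F2 and 0.32 (95% interval -0.76 to 1.40) in F1 in the authors' deposited tables. The beta chain, *fgb*, was listed at 1603 FPKM in F2 BaP frogs and 2311 in F2 controls, and at 953 FPKM in F1 BaP frogs and 913 in F1 controls, with log2 fold changes of -0.53 (95% interval -1.29 to 0.24) in F2 and 0.06 (95% interval -0.97 to 1.09) in F1. The alpha chain, *fga*, was listed at 1393 FPKM in F2 BaP frogs and 1717 in F2 controls, and at 937 FPKM in F1 BaP frogs and 764 in F1 controls, with -0.30 in F2 and 0.29 in F1 on the log2 scale. The order *fgg*, *fgb*, *fga* held in all 4 groups. The spacing of the chains differed by generation: *fgg* was 1.16 times *fga* in F2 BaP frogs and 1.39 times in F2 controls, but 2.50 times in F1 BaP frogs and 2.45 times in F1 controls.

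**Figure D5:**
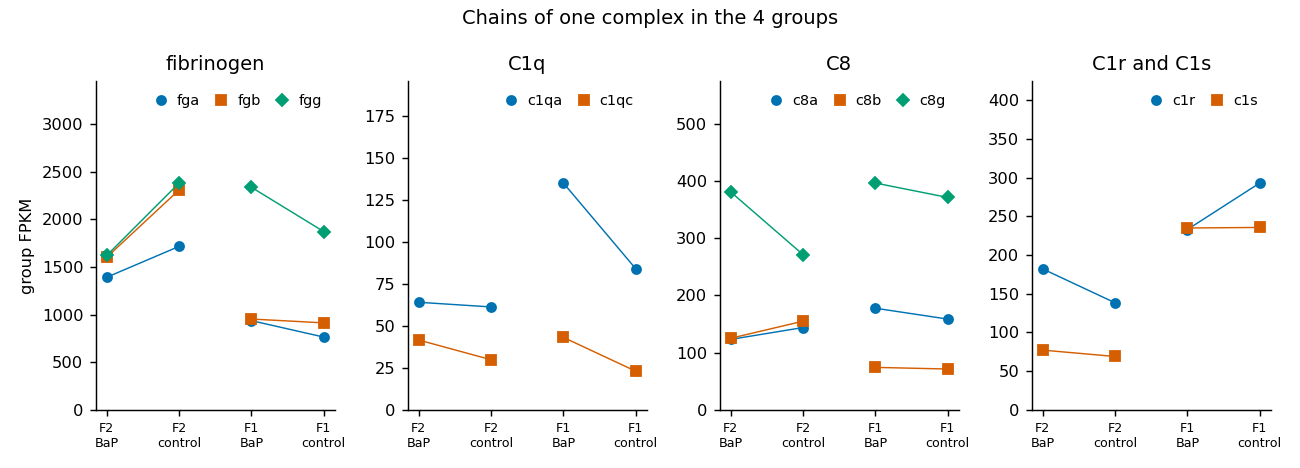
Group FPKM of the chains of 4 complexes in F2 BaP, F2 control, F1 BaP and F1 control frogs, 1 value per group with no error. Thin lines join the lineages of 1 generation. In fibrinogen, *fgb* is close to *fgg* in both F2 groups (1603 and 1622 in BaP frogs, 2311 and 2383 in controls). In F1 *fgb* lies nearer to *fga*, at 953 beside 937 in BaP frogs and 913 beside 764 in controls.

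Factor XIII, the transglutaminase that cross-links fibrin, was represented by low values. Its catalytic subunit *f13a1*, known in mammals from platelets and macrophages, was listed at 2.51 FPKM in F2 BaP frogs and 3.69 in F2 controls, and at 4.93 FPKM in F1 BaP frogs and 3.94 in F1 controls. In the authors' deposited F2 table its log2 fold change was -0.56 (95% interval -1.04 to -0.07), with p = 0.0248, q = 0.405, and in the authors' deposited F1 table it was 0.32 (95% interval -0.25 to 0.89), with p = 0.264, q = 0.984. It was the 1 clotting gene with an unadjusted p under 0.05 in F2. The thrombocyte markers beside it had 4 of 9 values above 0 in F2, against 45.8% of all rows, and 9 of 9 in F1, against 53.2%. An unadjusted p under 0.05 was reached by 33.3% of them in F2, against 8.9% of all rows, and by 11.1% in F1, against 8.91%. Of these markers 1 was called in F2, against 1.32% of all tested rows. This marker, *itga2b.1*, was higher in F2 BaP frogs. Lower in F2 BaP frogs at an unadjusted p under 0.05 were *thbs1*, at -0.77 (95% interval -1.39 to -0.15) with p = 0.0157, q = 0.325, and *gp1bb*, at -0.90 (95% interval -1.78 to -0.02) with p = 0.0459, q = 0.543, in the authors' deposited F2 table. The 95% interval of the difference between generations left out 0 for 3 of the 9 thrombocyte markers, in both directions, against 9.03% of all rows. The difference was -1.25 (95% interval -2.13 to -0.36) for *thbs1*, with an adjusted p of 0.205, the smallest of the list. It was -0.92 (95% interval -1.74 to -0.10) for *nfe2*. For the called *itga2b.1* it was above 0, at 0.93 (95% interval 0.12 to 1.74). In the authors' deposited F1 table *nfe2* was higher in BaP frogs, at 0.63 (95% interval 0.04 to 1.21). The summed FPKM of the list was 79.4 in F2 BaP frogs and 96.4 in F2 controls, and 94.98 in F1 BaP frogs and 78.2 in F1 controls. No matched thrombocyte marker was at 0, *gp1ba*, *gp5*, *gp9* and *pf4* matched no row, and their part in the *f13a1* value was not tested. The carrier subunit *f13b* was listed at 0.409 FPKM in F2 BaP frogs and 0.561 in F2 controls, and at 0.681 FPKM in F1 BaP frogs and 0.464 in F1 controls.

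Genes from tissue factor to factor X were below their controls apart from *f10* in F1, and the lowest F1 value of any tested member was that of *f9*. Tissue factor, *f3*, was listed at 2.88 FPKM in F2 BaP frogs and 2.99 in F2 controls, and at 2.74 FPKM in F1 BaP frogs and 3.05 in F1 controls, and factor VII, *f7*, its partner, at 117 FPKM in F2 BaP frogs and 132 in F2 controls, and at 154 FPKM in F1 BaP frogs and 190.4 in F1 controls. Both genes were below the controls in both tables, *f7* by a log2 fold change of -0.17 in F2 and -0.31 in F1. Factor IX, *f9*, the factor of haemophilia B in humans, was also below in both, with 145 FPKM in F2 BaP frogs and 186 in F2 controls, and 205 FPKM in F1 BaP frogs and 308 in F1 controls. In the authors' deposited tables its log2 fold changes were -0.36 (95% interval -0.93 to 0.21) in F2, with p = 0.222, q = 0.871, and -0.59 (95% interval -1.29 to 0.12) in F1, with p = 0.102, q = 0.748. Factor X, *f10*, a direct neighbour of *f7* on chromosome 2, was listed at 252 FPKM in F2 BaP frogs and 289 in F2 controls, and at 194 FPKM in F1 BaP frogs and 181 in F1 controls.

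Prothrombin, *f2*, the precursor of thrombin, was the most abundant protease gene of the cascade, with 905 FPKM in F2 BaP frogs and 812 in F2 controls, and 1097 FPKM in F1 BaP frogs and 975 in F1 controls. Its log2 fold changes were close in the generations, 0.16 in F2 and 0.17 in F1 in the authors' deposited tables. The cofactor genes were less abundant: *f5* had 22.0 FPKM in F2 BaP frogs and 23.9 in F2 controls, and 28.3 FPKM in F1 BaP frogs and 28.3 in F1 controls, while *f8* had 1.35 FPKM in F2 BaP frogs and 1.41 in F2 controls, and 3.29 FPKM in F1 BaP frogs and 3.69 in F1 controls. The carrier of factor VIII, *vwf*, which endothelium makes in mammals, was listed at 0.438 FPKM in F2 BaP frogs and 0.498 in F2 controls (not tested), and at 0.947 FPKM in F1 BaP frogs and 0.788 in F1 controls. Endothelial markers beside *vwf* and *f8* had 2 of 9 tested values above 0 in F2, against 45.8% of all rows. In F1 6 of 10 were above 0, against 53.2% of all rows. None was called, against 1.32% of all rows in F2 and 1.67% in F1. An unadjusted p under 0.05 was reached by 22.2% of them in F2, against 8.9% of all rows, and by none in F1. These were *stab1*, at 0.67, and *esam*, at -0.60. None of the matched endothelial markers was at 0, and their part was not tested.

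Genes of the contact system, which starts clotting on surfaces and releases bradykinin, were grouped with *hrg*. All 4 were below 0 in F2 and above 0 in F1 with none called, but *kng1* and *klkb1* were close to 0 in F2. These signs were shared by 31.3% of all rows and by 63% of rows reaching 100 FPKM in both tables. The medians of the 4 genes were -0.06 in F2 and 0.18 in F1. They were nearer 0 than those of all rows reaching 100 FPKM, -0.19 in F2 and 0.28 in F1. Kininogen, *kng1*, was listed at 274.3 FPKM in F2 BaP frogs and 274.5 in F2 controls, and at 1097 FPKM in F1 BaP frogs and 999 in F1 controls. On the log2 scale the authors' deposited tables put it at -0.0009 (95% interval -0.50 to 0.50) in F2 and 0.13 (95% interval -0.85 to 1.12) in F1. Its neighbour on chromosome 5, histidine-rich glycoprotein *hrg*, which binds heparin and plasminogen, was listed at 1148 FPKM in F2 BaP frogs and 1342 in F2 controls, and at 1779 FPKM in F1 BaP frogs and 1513 in F1 controls. Prekallikrein, *klkb1*, had log2 fold changes of -0.04 in F2 and 0.30 in F1 and factor XII, *f12*, of -0.09 in F2 and 0.08 in F1 in the authors' deposited tables.

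Fibrinolysis genes were below 0 in F2 and above 0 in F1 except for tissue plasminogen activator, *plat*, which had 0.16 in F2 and 0.16 in F1. Such a split was common, in 31.3% of all rows and 63% of rows reaching 100 FPKM in both tables. Plasminogen, *plg*, was listed at 275 FPKM in F2 BaP frogs and 339.8 in F2 controls, and at 438 FPKM in F1 BaP frogs and 415 in F1 controls, with log2 fold changes of -0.31 in F2 and 0.08 in F1. Both brakes on plasmin were measured. The carboxypeptidase gene *cpb2*, which removes plasminogen-binding sites from fibrin, had -0.33 (95% interval -0.94 to 0.28) in F2 and 0.41 (95% interval -0.37 to 1.20) in F1 in the authors' deposited tables. Alpha-2-antiplasmin, *serpinf2*, had -0.26 (95% interval -0.87 to 0.34) in F2 and 0.28 (95% interval -0.50 to 1.06) in F1 there.

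The inhibitors of clotting included the member with the largest difference between generations. Antithrombin, *serpinc1*, which blocks thrombin and factor Xa, was listed at 744 FPKM in F2 BaP frogs and 1012 in F2 controls, and at 913 FPKM in F1 BaP frogs and 547 in F1 controls. In the authors' deposited tables this was a log2 fold change of -0.44 (95% interval -1.14 to 0.26) in F2, with p = 0.214, q = 0.86, and of 0.74 (95% interval -0.12 to 1.61) in F1, with p = 0.0935, q = 0.726. The protein Z-dependent inhibitor *serpina10* was listed at 60.5 FPKM in F2 BaP frogs and 73.3 in F2 controls, and at 49.6 FPKM in F1 BaP frogs and 31.5 in F1 controls, with -0.28 (95% interval -0.86 to 0.31) in F2 and 0.65 (95% interval -0.06 to 1.36) in F1. Heparin cofactor II, *serpind1*, was listed at 290.2 FPKM in F2 BaP frogs and 336 in F2 controls, and at 133 FPKM in F1 BaP frogs and 86.7 in F1 controls, with -0.21 (95% interval -0.89 to 0.47) in F2 and 0.62 (95% interval -0.50 to 1.74) in F1. Its row overlaps that of *pi4ka*, and no source used here says whether the counting used strand, so its values are uncertain. The 3 inhibitors were each below the controls in F2 and above them in F1, with no call. So were 31.3% of all rows and 63% of rows reaching 100 FPKM in both tables.

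Genes of the protein C system, the other main brake, were close to their controls apart from *pros1* in F1. Protein S, *pros1*, the cofactor of activated protein C, was listed at 6.51 FPKM in F2 BaP frogs and 5.92 in F2 controls, and at 3.01 FPKM in F1 BaP frogs and 1.90 in F1 controls. It had the smallest p of the clotting genes in F1, a log2 fold change of 0.66 (95% interval 0.08 to 1.24) with p = 0.0254, q = 0.402 in the authors' deposited F1 table, and 0.14 (95% interval -0.38 to 0.65) in the authors' deposited F2 table. Protein C itself, *proc*, was listed at 273 FPKM in F2 BaP frogs and 297 in F2 controls, and at 285 FPKM in F1 BaP frogs and 293 in F1 controls, and its neighbour *proc.2* at 41.4 FPKM in F2 BaP frogs and 34.8 in F2 controls, and at 55.1 FPKM in F1 BaP frogs and 56.4 in F1 controls, with the caution given for the *c6* copies. The proteinase inhibitor *pzp*, whose row overlaps those of other genes, was listed at 162 FPKM in F2 BaP frogs and 169.6 in F2 controls.

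The difference between generations was tested gene by gene over 11677 rows tested in both tables, as the log2 fold change in F2 minus that in F1. Of 49 members 0 passed at a Benjamini-Hochberg p under 0.05, against 0.959% of all rows. When a log2 difference was set artificially, this step called 53 of 100 genes at 2 and 82 of 100 at 4. Among 11477 genes set to no difference it called 9. The genes were drawn from all rows, with the standard error from p taken as true. These rates are therefore not those of the members. The member differences were smaller than 2, the largest in size being -1.18 for *serpinc1*. Whether the step would call differences of that size was not tested. An unadjusted p under 0.05 was reached by 3 members, against 9.03% of all rows. All 3 were clotting genes lower in F2 than in F1, as were 4.76% of all rows. The smallest p was that of *f13a1*, with a difference of -0.88 (95% interval -1.63 to -0.13) and an adjusted p of 0.387. The inhibitor gene *serpinc1* followed at -1.18 (95% interval -2.30 to -0.07) with an adjusted p of 0.495, and *serpina10* at -0.93 (95% interval -1.85 to -0.0092) with 0.542. The next were *c1qa* at -0.62 (95% interval -1.41 to 0.17), *c6.1* at -0.68 (95% interval -1.55 to 0.19) and *f13b* at -1.01 (95% interval -2.31 to 0.29), whose intervals include 0. For *fgg* the difference was -0.88 (95% interval -2.17 to 0.42) and for *kng1* -0.14 (95% interval -1.24 to 0.97).

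Values below 0 in F2 and above 0 in F1 were found for 26 of 49 members, 17 of 26 clotting rows (65.4%) and 9 of 23 complement rows (39.1%). The same held for 31.3% of all rows and for 63% of rows reaching 100 FPKM in both tables. The member counts here include rows under 100 FPKM. The reverse pattern was seen for *c1r*, *c1s*, *c5* and *proc.2*. Values were above 0 in both tables for 10 members and below 0 in both for 9.

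Levels also differed between the generations in both lineages, for some members by more than 2-fold. These are values of separately normalized tables with 1 number per group, so they are given with no test. Of 49 members tested in both tables, 5 were lower in F2 than in F1 by 2-fold or more in BaP frogs and in controls alike, as were 18.3% of all 11679 rows tested in both. These were *kng1*, *cfp*, *c1s*, *klkb1* and *f8*. The F2 over F1 ratio of *kng1* was 0.250 in BaP frogs and 0.275 in controls. Among tested rows its rank by FPKM was 257 in F2 BaP frogs and 267 in F2 controls, and 127 in F1 BaP frogs and 119 in F1 controls. For *klkb1*, whose product cleaves kininogen, the rank was 961 in F2 BaP frogs and 968 in F2 controls, and 467 in F1 BaP frogs and 509 in F1 controls. Higher in F2 by 2-fold or more were 3 members, *cd59*, *serpind1* and *pros1*, as were 4.29% of all rows. The ratio of *cd59* was 2.27 in BaP frogs and 3.24 in controls. The median ratio of all rows tested in both tables was 0.787 in BaP frogs and 0.794 in controls.

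Partners of these cascades that were not members were looked up from lists of receptors, lectins, cofactors and further inhibitors. Of 26 complement partners, 15 symbols were found, and of 36 clotting partners 26. Among complement partners, 2 of 11 tested rows were called in F2, both higher, against 1.32% of all tested rows. In F1 0 of 10 were called, against 1.67% of all tested rows. An unadjusted p under 0.05 was reached by 27.3% of these partners in F2, against 8.9% of all rows. In F1 it was reached by 20%, *c1qbp* and *c1ql1*, against 8.91% of all rows. The partners called in F2 encode ficolins, lectins that activate the MASP proteases. Their rows, *fcn3* (3674445 to 3681087) and *fcn1* (3682691 to 3691879), lie close together on chromosome 8. The caution given for the *c6* copies holds for them, so they may not be 2 independent calls. In the authors' deposited F2 table *fcn1* was listed at 79.0 FPKM in F2 BaP frogs and 23.8 in F2 controls (log2 fold change 1.73, q = 0.00755) and *fcn3* at 371 FPKM in F2 BaP frogs and 139 in F2 controls (1.41, q = 0.0175). In the authors' deposited F1 table the log2 fold change of *fcn1* was 1.19 with q = 0.973, and that of *fcn3* was 0.92 with q = 1. The difference between the generations was 0.54 (95% interval -1.64 to 2.72) for *fcn1* and 0.49 (95% interval -1.83 to 2.81) for *fcn3*. Among further lectins of the pathway, *mbl2* was at -0.18 in F2 and 0.11 in F1 and *colec10* at 0.43 in F2 and 0.53 in F1, with no call. Clusterin, *clu*, a fluid-phase inhibitor of the pore, was listed at 3.93 FPKM in F2 BaP frogs and 1.64 in F2 controls, with q = 0.0768 in the authors' deposited F2 table.

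Of 27 clotting partners tested in F2, 1 was called, against 1.32% of all tested rows, and 0 of 26 in F1, against 1.67%. An unadjusted p under 0.05 was reached by 11.1% of them in F2, against 8.9% of all rows. In F1 it was reached by 7.69%, *tfpi2* and *bdkrb2*, against 8.91% of all rows. The called row was *itga2b.1*, for the alpha chain of the fibrinogen receptor of platelets and thrombocytes, with 5.73 FPKM in F2 BaP frogs and 2.49 in F2 controls and a log2 fold change of 1.20 (95% interval 0.62 to 1.78) in the authors' deposited F2 table (q = 0.00755). The row *itga2b.2* (14962850 to 14996367) lies close to *itga2b.1* (15001258 to 15020875) on chromosome 10, with the caution given for the *c6* copies. In F2 *itga2b.2* had 0.44, and the partner chain *itgb3* had -0.21. The bradykinin receptor gene *bdkrb2* had log2 fold changes of -0.52 in F2 and -1.01 in F1 in the authors' deposited tables, and the inhibitor gene *tfpi2* -0.18 in F2 and 0.80 in F1. In F2 the protease-activated receptor gene *f2rl1*, at -0.85, and the platelet glycoprotein gene *gp1bb*, at -0.90, had an unadjusted p under 0.05 without a call. The abundant antitrypsin gene *serpina1* was listed at 2282 FPKM in F2 BaP frogs and 2552 in F2 controls, and at 3344 FPKM in F1 BaP frogs and 2763 in F1 controls. Vitamin K enzymes, which prepare factors II, VII, IX and X, were at -0.41 in F2 and 0.41 in F1 for the carboxylase *ggcx* and at 0.20 in F2 and -0.0072 in F1 for the reductase *vkorc1* in the authors' deposited tables.

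Regulators (16 of 20 symbols found) known in mammals to control these genes in hepatocytes showed no call in either table. Cuffdiff called 0 of 15 tested in F2, against 1.32% of all rows, and 0 of 14 in F1, against 1.67%. The symbols *cebpa*, *cebpb*, *cebpd* and *foxa3* matched no row, so nothing is said of them. In F2 the interleukin-6 receptor gene *il6r* and *stat3.2*, a copy of its downstream factor, had an unadjusted p under 0.05, and in F1 none did. These were 13.3% of the regulators tested in F2, against 8.9% of all tested rows. The authors' F2 table gave log2 fold changes of 0.76 (95% interval 0.19 to 1.34) for *il6r* and 0.69 (95% interval 0.21 to 1.16) for *stat3.2*, with 5.19 FPKM in F2 BaP frogs and 3.06 in F2 controls for the receptor. The other copy, *stat3.1*, was at -0.16 in F2 and *il6st* at -0.26. Of the 15 regulators tested in F2, 5 were above 0 and 10 below, against 45.8% and 54.2% of all tested rows. The hepatocyte factor gene *hnf4a* was at -0.09 in F2 and -0.16 in F1 on the log2 scale in the authors' deposited tables. The cytokine gene *il6* was listed at 0 in all 4 groups.

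Some transcripts listed as markers of pancreas and muscle were present in the same livers, and their source was not tested. Pancreas markers were above 0 in 5 of 6 tested rows in F2 and in 8 of 10 in F1, with 0 called in F2 and 3 in F1. Muscle markers were below 0 in 4 of 4 tested rows in F2 and in 5 of 5 in F1, with 1 called in F2 and 3 in F1. Over all tested rows 45.8% were above 0 and 54.2% below 0 in F2, and 53.2% above 0 and 46.8% below 0 in F1. Of all tested rows 1.32% were called in F2 and 1.67% in F1. Summed FPKM of the pancreas list was 347 in F2 BaP frogs and 336 in F2 controls, and 705 in F1 BaP frogs and 623 in F1 controls. The amylase genes *amy2a* and *amy2b* carry most of these sums, and without them the list summed to 19.0 in F2 BaP frogs and 2.72 in F2 controls, and to 54.7 in F1 BaP frogs and 5.94 in F1 controls. The median log2 fold change of the tested pancreas rows with a finite value was 2.03 in F2 and 3.63 in F1. For muscle the sum was 5.59 in F2 BaP frogs and 13.03 in F2 controls, and 4.07 in F1 BaP frogs and 16.5 in F1 controls. The pancreas genes *prss2* and *pnlip* were listed at 0 in all 4 groups, *ctrb2* and *cpb1* in F1 controls, and the muscle genes *tnnc2* and *tnni2* in F1 BaP frogs. Hepatocyte markers had 7 of 14 values above 0 in F2 and 12 of 14 in F1, with medians of 0.01 in F2 and 0.29 in F1 and none called. The part of these in the members' values was not tested.

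Several members are neighbours in the genome, and their values were not always of the same sign. Positions are those of assembly UCB_Xtro_10.0, whose gene table gave the same ends for 51 of the 53 rows. On chromosome 1, *fgg* (54496134 to 54503018) and *fga* (54510727 to 54521750) are 7708 bp apart. On chromosome 2, *f10* (116069643 to 116079284) and *f7* (116084517 to 116097774) are 5232 bp apart, with F1 log2 fold changes of 0.10 for *f10* and -0.31 for *f7* in the authors' deposited F1 table. On chromosome 5, *kng1* (105937027 to 105960107) and *hrg* (105966617 to 105972753) are 6509 bp apart. The pair *c1s* (9238122 to 9246402) and *c1r* (9267188 to 9297548) lies on chromosome 7, and *c2* and *cfb* on chromosome 8.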

How the data were processed

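Liver RNA of 21 frogs was sequenced from 15 mg of tissue each with a stranded poly(A) kit, per the labels' protocols. Tools named in the submitters' processing notes are Cuffdiff 0.0.7, Cufflinks 0.0.7, HISAT2 and Trimmomatic 0.32.1. Their settings are not stated in the labels or headers.

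Per the file headers, each of the 2 deposited tables is a Cuffdiff comparison of BaP with control for 1 generation. The deposited FPKM is the authors' value per group over all its libraries. The deposited log2 fold change carries no pseudocount. The deposited p-value and q-value come from the authors' test, whose smallest p was 5e-05, and the deposited test statistic is a score. Tables were normalized separately, so tests stayed within a table, apart from the difference of the fold changes. The depth of each library is unknown.

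Members were rows whose symbol, with or without a dotted number, matched the list. The members and all lists were chosen with earlier results of these data known, so no list was tested. Symbols *vtn* and *serping1* were counted as complement. The standard error of a fold change was its size divided by the normal quantile of the deposited p. The difference was the F2 minus the F1 value over its standard error, adjusted by Benjamini-Hochberg, and this step was tested on simulated data. The simulation took the standard error from p as true, so it could not show whether that standard error is right. Members were given full values if called, if unadjusted p was under 0.05, if among the 10 most abundant or the 6 smallest p of the difference, with at least 1 per role. Computation used Python 3.11.15, pandas 2.3.3, NumPy 2.4.6 and SciPy 1.17.1. Alternatives were other thresholds, filters, pseudocounts and standard errors.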

Additional observations from a re-analysis of the deposited data

How the results depend on the processing

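No member was called in either generation at q under 0.1, at q under 0.01, with q recomputed, among rows reaching 1 FPKM or with a fold of at least 1.5. At an unadjusted p under 0.05 the counts were 0 complement and 1 clotting gene in F2, and 2 complement genes and 1 clotting gene in F1. Over all genes, the 162 calls in F2 became 81 at q under 0.01 and 1089 at an unadjusted p under 0.05. The 207 calls in F1 became 315 at q under 0.1, 95 at q under 0.01 and 1107 at an unadjusted p under 0.05. The medians of complement and clotting in each generation kept their sign under all 8 alternatives run for them, and none moved by more than 0.1 on the log2 scale. None of these alternatives subtracted the median of rows of like abundance, so they do not show that the signs are particular to the members. Over rows reaching 100 FPKM that median was -0.19 in F2 and 0.28 in F1. These are further from 0 than each of the medians except that of clotting in F2 (-0.20). For the difference between generations, 0 complement genes and 3 clotting genes had an unadjusted p under 0.05, and 0 members passed under the other alternatives run. Over all genes the 112 differences became 1055 at an unadjusted p under 0.05, 204 at a Benjamini-Hochberg p under 0.1 and 1 with the standard error from the test statistic. With that standard error, 0 members had an interval within a 2-fold change in F2, against 41, and 0 in F1, against 23, in an alternative chosen after seeing the data. Leaving out each frog in turn was not run, because no value of a single library is held in the tables. No paired analysis was possible because the group columns carry no replicate numbers.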

Other observations

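Of the C8 chains *c8g* was highest in all 4 groups, while *c8a* and *c8b* were close in F2 and further apart in F1. In F2 *c8b* and *c8a* were listed at 125 and 123 FPKM in BaP frogs and at 155 and 144 in controls. In F1 they were at 74.2 and 178 FPKM in BaP frogs and at 71.2 and 159 in controls. Each is 1 value per group with no error, so the F2 order of these chains is uncertain. The ratio of *c8g* to the lowest chain was 3.10 in F2 BaP frogs and 1.89 in F2 controls, and 5.35 in F1 BaP frogs and 5.22 in F1 controls.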
